A study of Mus musculus with 8 samples.

Results

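The 16 genes described here encode parts of the extracellular matrix, integrins and proteases that act on matrix, in newborn mouse epidermis of wild type mice and of mice labelled as lacking the receptors for insulin and IGF-1. They were chosen by symbol, as those of 1396 genes in the authors' deposited table whose single symbol is Sparc or Fap or starts with the name of a collagen, laminin, integrin, ADAM or ADAMTS protein, matrix metalloproteinase, TIMP, fibrillin, fibulin, thrombospondin, tenascin-C, Fras or Frem protein, lysyl oxidase or latent TGF-beta binding protein. They had 24 probe sets among the 1804 with 1 symbol, and 45032 probe sets were tested in all. No laminin, matrix metalloproteinase, TIMP, fibulin, Frem, lysyl oxidase or latent TGF-beta binding gene met the rule.

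The series holds 8 Affymetrix Mouse 430 2.0 arrays of epidermis separated from the dermis of newborn C57Bl/6 mice. In 4 of them the genotype was IR-/-, IGF-1R-/- (called dKO), which names the genes of the receptors for insulin (Insr) and for IGF-1 (Igf1r) as deleted, and in the other 4 it was wild type (control). The samples are labelled as biological replicates. Whether each stands for 1 animal, and how and in which cells the genes were deleted, is not stated, so the spread between arrays may be technical. Both receptors carry growth and survival signals in keratinocytes.

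The epidermis rests on a basement membrane that keratinocytes and dermal fibroblasts build together. Integrins are receptors made of an alpha and a beta chain. They tie basal keratinocytes to laminin in that membrane, and other integrins let leukocytes hold on to epithelium. Interstitial collagens, fibrillin and the matricellular proteins are mostly products of mesenchymal cells, while tenascin-C and the alpha v beta 6 integrin are known to appear at the edge of healing wounds. ADAMTS proteins and Fap are extracellular enzymes, or relatives of enzymes, that act in matrix.

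Of the 16 genes, each taken by its brightest probe set, 11 were higher and 5 lower in dKO by their mean log2 signal. Of the 1396 named genes 43.2% were higher, and of all probe sets 43.8%. The median log2 difference was 0.57, and it was -0.59 over the named genes and -0.07 over all probe sets. The authors' deposited table holds no fold under 1.5. The medians of the 16 and of the named genes therefore depend mostly on which direction is more frequent. The higher genes were Col5a1, Col8a1, Col19a1, Fbn1, Sparc, Thbs2, Tnc, Adamtsl5, Itga3, Itgav and Itgb6. The lower genes were Fap, Fras1, Adamts9, Itgae and Itgal. All 6 genes with several named probe sets had the same direction in each of them. Only probe sets in the authors' deposited table had names, so unchanged or opposite probe sets of these genes could not be seen.

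These genes are named only because the authors had listed them as different on the same 8 arrays, so their differences are a description and support no statement about matrix genes as a group. No fold under 1.5 in size and no unadjusted p-value above 0.0499 occurs in the authors' deposited table. The members nearest to these limits in the authors' deposited table were a probe set of Itga3 with a fold of 1.51 and Itgb6 with a p-value of 0.0466. All 24 probe sets had the same direction in the authors' deposited table and in the value table. The sizes often differed. Col19a1 had a fold of 2.23 in the authors' deposited table and 4.22 from the value table, and Adamtsl5 1.55 and 1.30. The normalization behind the authors' folds is not stated.

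With limma on all probe sets, 3 of the 16 genes passed an adjusted p of 0.05, namely Sparc, Thbs2 and Tnc, all higher in dKO. The same call held for 41.8% of the 1396 named genes (19.4% higher, 22.3% lower) and for 2.25% of all probe sets (0.993% higher, 1.25% lower). An unadjusted p under 0.05 held for 14 of the 16 genes, 9 higher and 5 lower. It held for 93.7% of the named genes (39.7% higher, 54.0% lower) and for 15.0% of all probe sets (5.74% higher, 9.28% lower). By probe set, 6 of 24 passed, 5 of them higher and 1, the dimmer probe set of Itgae, lower. The 4 dKO signals lay entirely above or below the 4 control signals in 7 genes, 3 above (Col19a1, Sparc, Thbs2) and 4 below (Fras1, Adamts9, Itgae, Itgal). Groups did not overlap in 68.1% of the named genes (28.4% above, 39.7% below) and in 9.37% of all probe sets (3.44% above, 5.93% below).

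Both targeted receptors were lower on every dKO array than on any control, with Insr at 50.7 to 87.6 signal units in dKO and 176.1 to 309.6 in controls, and Igf1r at 314.7 to 369.1 and 456 to 707 (brightest probe sets). Whether these probe sets lie in the deleted parts is not stated. Array medians lay between 40.7 and 51.7 signal units, and 3 members, Col19a1, Fbn1 and Itgal, were below the median level of all probe sets. No detection call was used here, so dim genes are also described on the scale of log2(signal + 32), which gives small signals less weight. The plot of signals by array shows all 16 genes.

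**Figure D1:**
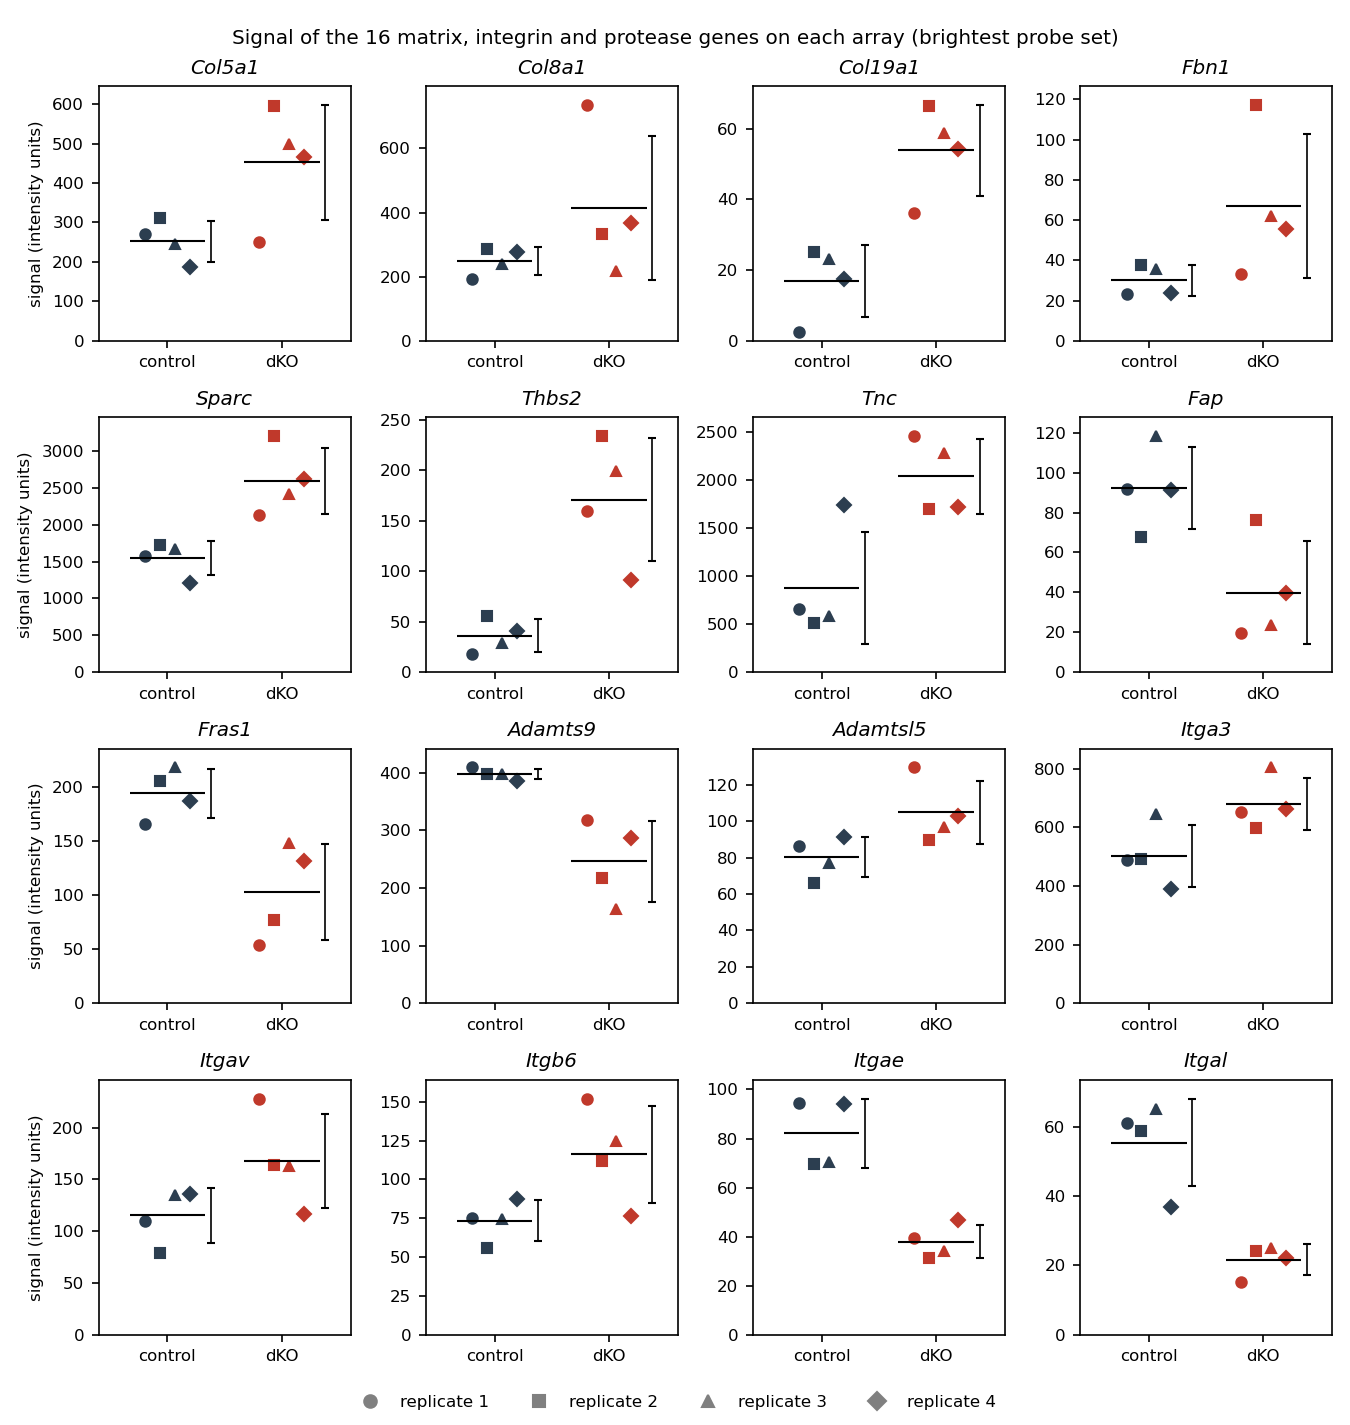
Signal in intensity units (y axis, linear, each panel with its own scale) of the brightest probe set of each of the 16 genes in the 4 control and 4 dKO arrays. Each point is an array, its shape the replicate number, the line the group mean and the bar 1 SD. Sparc and Thbs2 are separated between groups, and in Tnc control replicate 4, at 1738 units, lies among the dKO arrays.

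The matricellular proteins bind collagen and cell receptors and shape how cells attach without being structural fibres themselves. Thbs2, thrombospondin-2, is a secreted glycoprotein known to inhibit the formation of blood vessels and to regulate collagen fibril assembly. Its brightest probe set read 159.4, 233.7, 199.4 and 91.1 units in dKO replicates 1 to 4 and 18.2, 56.0, 29.1 and 41.0 in control replicates 1 to 4. Every dKO array was above every control, and the lowest dKO value was that of replicate 4.

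The means of Thbs2 were 171 ± 61.3 and 36.1 ± 16.2 units (SD, n = 4 each), a 4.86-fold difference or 2.28 on the log2 scale (SE 0.38). With 32 added to each signal the difference was 1.55. The second Thbs2 probe set differed by 1.49 (SE 0.35) and the third by 1.97 (SE 0.43). On the scale with 32 added these values were 0.95 and 1.05. All 3 passed the threshold with no overlap. The dimmest of them carries the suffix by which Affymetrix marks probe sets that may also bind other transcripts. The call of the brightest probe set stayed without any single array.

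Sparc is a collagen-binding glycoprotein, also called osteonectin. It read 2137, 3203, 2413 and 2618 units in dKO replicates 1 to 4 and 1574, 1731, 1666 and 1215 in control replicates 1 to 4. The groups were separate, with the highest control below the lowest dKO array. The dKO mean was 2593 ± 452 units and the control mean 1546 ± 230.4 (SD, n = 4 each), a log2 difference of 0.74 (SE 0.15).

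The second Sparc probe set read 1390 to 1946 units in dKO and 616.4 to 1331 in controls, without overlap, and differed by 0.81 (SE 0.20), which did not pass. The call of the brighter one was lost in 3 of the 8 fits with 1 array left out. These were the fits lacking dKO replicate 2 (0.64, limma Benjamini-Hochberg adjusted p = 0.0658), dKO replicate 3 (0.77, adjusted p = 0.0566) and control replicate 1 (0.76, adjusted p = 0.0725).

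Tnc encodes tenascin-C, a large glycoprotein that is low in resting skin and is made at wound edges. It read 2452, 1699, 2277 and 1713 units in dKO replicates 1 to 4, and 650.3, 505.9, 587 and 1738 in control replicates 1 to 4. Control replicate 4 lay within the dKO range, and the other 3 controls far below it. The log2 difference was 1.40 (SE 0.31), with means of 2035 ± 387 and 870.2 ± 581 units (SD, n = 4 each). Without control replicate 4 it was 1.80, with no overlap.

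The call of Tnc was lost with robust variance (limma Benjamini-Hochberg adjusted p = 0.103) and when any array but those numbered 4 was left out (limma Benjamini-Hochberg adjusted p between 0.0712 and 0.126). The array that was high for Tnc was also the highest control for the wound keratins Krt6b and Krt16, which were looked at because of this value. On that array Krt6b stood at 6636 units, between the remaining controls (376.8 to 714.8) and the dKO arrays (14437 to 19173). Krt16 stood at 2633 units, with 307.5 to 460.2 in the remaining controls. Whether the same cells carried both signals was not tested.

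The 250 bases before the annotated start site are shown for these 3 genes because only their brightest probe sets passed the threshold. The sequences are from RefSeq on build GRCm38.p6, written 5′ to 3′ on the gene's strand, which is the minus strand in each case, and end at the base before the start site. Capitals mark matches, on either strand, to the TATA box (TATAAA), to the CCAAT box and to the GC box (GGGCGG).
Thbs2: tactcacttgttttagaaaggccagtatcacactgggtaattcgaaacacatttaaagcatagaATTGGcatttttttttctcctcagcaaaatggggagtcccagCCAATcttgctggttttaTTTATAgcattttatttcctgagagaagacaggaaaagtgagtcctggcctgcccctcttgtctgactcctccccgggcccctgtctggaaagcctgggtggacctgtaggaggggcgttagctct
Tnc: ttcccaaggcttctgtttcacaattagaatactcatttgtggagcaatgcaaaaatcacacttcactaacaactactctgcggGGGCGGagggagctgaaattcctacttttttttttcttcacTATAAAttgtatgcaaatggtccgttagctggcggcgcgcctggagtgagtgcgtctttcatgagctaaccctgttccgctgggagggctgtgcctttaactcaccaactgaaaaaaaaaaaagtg
Sparc: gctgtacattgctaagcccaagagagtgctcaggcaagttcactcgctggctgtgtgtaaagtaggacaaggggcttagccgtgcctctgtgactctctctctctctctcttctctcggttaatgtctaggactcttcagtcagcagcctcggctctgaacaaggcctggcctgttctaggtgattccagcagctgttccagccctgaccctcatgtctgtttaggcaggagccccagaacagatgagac
The windows lie at chr17:14694263-14694512 for Thbs2, chr4:64047016-64047265 for Tnc, which has a second annotated start nearby, and chr11:55420081-55420330 for Sparc. The Thbs2 window held a CCAAT box on each strand and a TATA box on the opposite strand. That of Tnc held a GC box and a TATA box on its own strand, and that of Sparc held none of these 3 motifs.

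Promoter sequence was found for 12 of the 16 genes, in 15 windows. The GC box was in 9 of the 15 windows and in 32.7% of all 32851 windows of that length. These 9 belong to 7 of the 12 genes (Adamts9, Adamtsl5, Col5a1, Col8a1, Fbn1, Itga3 and Tnc). The TATA box was in 3 of the 15 windows, of Thbs2 and Tnc (12.4% of all windows), and the CCAAT box in 2 of the 15, of Itga3 and Thbs2 (33.8%). The windows of Tnc overlap and hold the same sites. The AP-1 motif TGANTCA was in 0 of the 15 windows and in 6.75% of all. The FoxO motif TGTTTAC was likewise in 0 of the 15 and in 3.17% of all. Both strands were searched, and no match of 1 motif lay within another. A match or its absence in such a window says nothing about binding.

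The collagens and fibrillin-1 were higher in dKO by their means, and none passed the threshold. Col5a1, the chain that starts and limits the width of collagen fibrils, read 250.4, 594.9, 500.1 and 465.4 units in dKO replicates 1 to 4 and 269.7, 310.9, 244.2 and 186.7 in control replicates 1 to 4. The dKO replicate 1 value lay inside the control range and the other 3 above it. Its log2 difference was 0.80 (SE 0.24), and 1.06 without dKO replicate 1, where it passed the threshold (limma Benjamini-Hochberg adjusted p = 0.00917).

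The second Col5a1 probe set differed by 0.73 (SE 0.33), with 87.3 to 177.8 units in dKO and 41.2 to 105.0 in controls. Fbn1 encodes fibrillin-1, the backbone of the microfibrils that surround elastic fibres. It read 33.3, 117.3, 61.9 and 55.5 units in dKO replicates 1 to 4 against 23.1, 37.7, 35.7 and 23.6 in controls, again with only dKO replicate 1 inside the control range. The difference was 1.05 (SE 0.40), or 0.62 with 32 added.

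Col19a1, a collagen of the group that sits on fibrils or near basement membranes, read 36.0, 66.3, 58.8 and 54.1 units in dKO and 2.4, 25.0, 23.0 and 17.4 in controls. The groups did not overlap, but all signals were dim and control replicate 1 was far below the others. Its log2 difference of 2.08 (SE 0.68) became 0.82 with 32 added and 1.28 without control replicate 1.

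Col8a1, a short-chain collagen known from vessel walls and the corneal basement membrane, read 735.8 units in dKO replicate 1 and 333.1, 218.4 and 368.8 in dKO replicates 2 to 4, against 191.9 to 285.8 in controls. A single dKO array was thus well above all others, and replicate 3 lay among the controls. The difference was 0.61 (SE 0.29), and 0.29 without dKO replicate 1. Its only probe set here has the suffix of possible cross-binding.

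Within each group the arrays ordered some of these genes alike, which the choice of genes by group difference did not use. Of the 11 genes with higher means in dKO, 5 (Col5a1, Col19a1, Fbn1, Sparc and Thbs2) had dKO replicate 2 as their highest dKO array, and 4 of these, all but Thbs2, had dKO replicate 1 as their lowest. Another 5 (Col8a1, Tnc, Adamtsl5, Itgav and Itgb6) instead had dKO replicate 1 as their highest. Control replicate 2 was the highest control for the first 5 and for Col8a1. For Tnc, Adamtsl5, Itgav and Itgb6, control replicate 4 was the highest control and control replicate 2 the lowest. The second Thbs2 probe set was instead highest in dKO replicate 3, at 138.7 units against 123.9 in replicate 2. Among the 5 lower genes, each dKO array was the highest for 1 or 2. How often each array was highest or lowest over all probe sets was not counted. The order was noticed after the values were seen and is a description of 4 arrays a group, shown in the map of deviations.

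**Figure D2:**
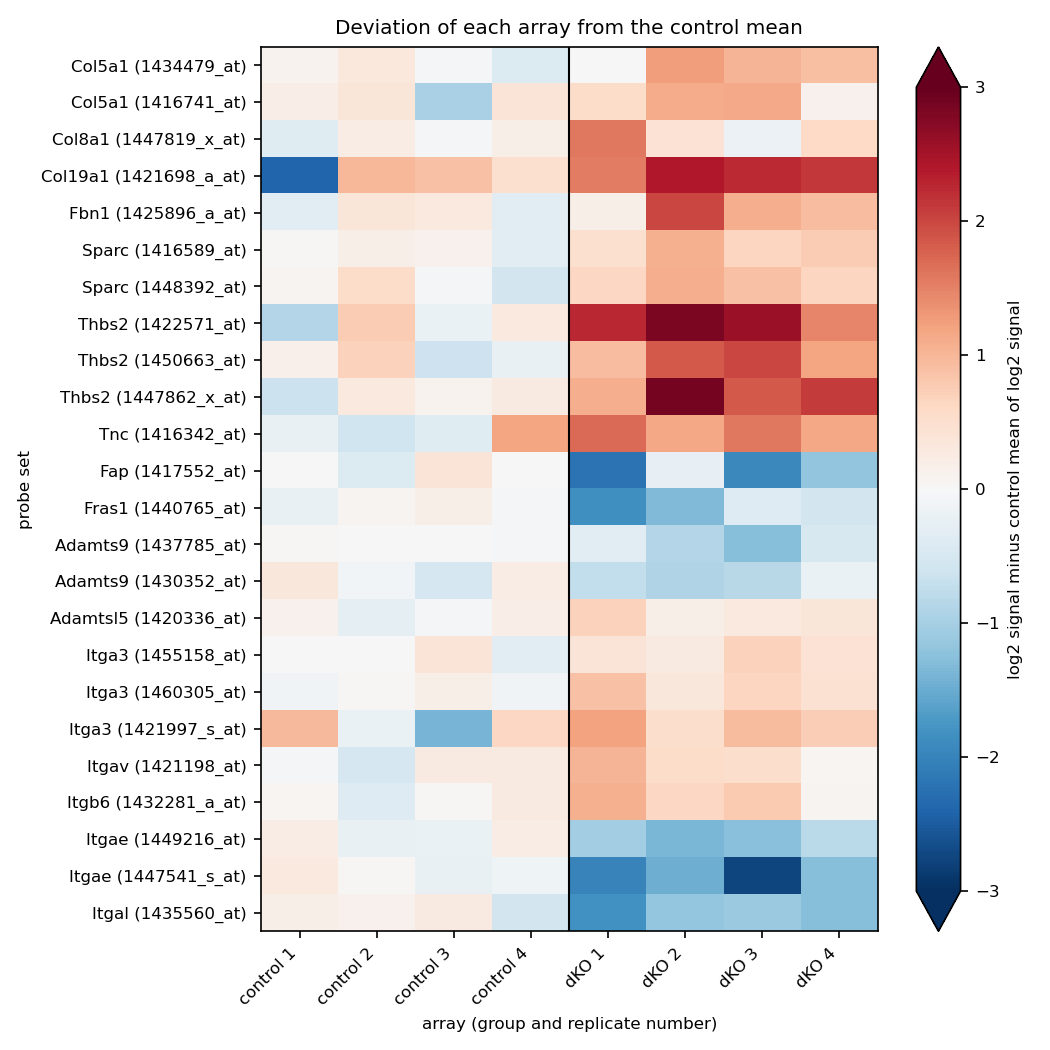
Colour gives the log2 signal of each array (columns, controls left and dKO right of the line) minus the mean log2 signal of the controls, for each of the 24 probe sets (rows). Among the dKO arrays, Fbn1, both probe sets of Sparc and the brighter one of Col5a1 are strongest in replicate 2 and weakest in replicate 1, the dimmer Col5a1 probe set is strongest in replicate 3 and weakest in replicate 4, and Tnc is high in control replicate 4 as well as in dKO.

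Several of these genes are mostly made by cells of the dermis, and fewer cells of a type cannot be told apart from less RNA per cell in such samples. None of the 12 fibroblast markers on the list used here had a name in the authors' deposited table, nor did any of 7 endothelial and 7 skeletal muscle markers, so their levels are not given here. The summed signal of the 2 named red cell genes of 5 was 164 to 456 units in dKO and 43.3 to 70.6 in controls. Most of it came from Alas2, at 127.9 to 372.1 units in dKO and 14.7 to 64.2 in controls. Slc4a1 overlapped, at 36.1 to 83.9 and 6.4 to 50.5 units, and did not pass. Of 6 smooth muscle markers only Tagln was named, with 1.8 to 17.7 units in dKO and 38.3 to 142.8 in controls. The part of other cells in the matrix signals was not tested.

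Fras1, Fap and Adamts9 were lower in dKO by their means. Fras1 is a protein of the basement membrane zone, made by epidermal cells, whose loss in mice causes blistering in the embryo. It read 54.0, 77.1, 148.7 and 131.8 units in dKO replicates 1 to 4 and 166.0, 205.9, 218.1 and 187.4 in controls. All dKO arrays were below all controls, replicates 1 and 2 the furthest, and the difference was -1.02 (SE 0.29), which did not pass.

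Adamts9, a secreted metalloprotease that cleaves proteoglycans such as versican, read 317.9, 216.7, 163.4 and 286.2 units in dKO replicates 1 to 4 and 386.3 to 409 in controls. The controls were within a narrow range, and no dKO array reached it. The brighter probe set differed by -0.74 (SE 0.19) and the dimmer, with overlapping groups, by -0.66 (SE 0.21). The first passed the threshold without dKO replicate 1 or without dKO replicate 4 (limma Benjamini-Hochberg adjusted p of 0.0227 and 0.0456).

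Fap, fibroblast activation protein, is a membrane serine protease of activated fibroblasts. It read 19.6, 76.2, 23.8 and 39.7 units in dKO replicates 1 to 4 and 91.7, 67.9, 118.3 and 91.4 in control replicates 1 to 4. The groups touched only in dKO replicate 2 and control replicate 2. The difference was -1.39 (SE 0.40), or -0.84 with 32 added, and without dKO replicate 2 it was -1.78 and passed (limma Benjamini-Hochberg adjusted p = 0.0366).

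Adamtsl5, a secreted protein related to the ADAMTS family but without a protease domain, had the smallest difference of the 16. It read 129.4, 89.7, 96.9 and 103.0 units in dKO and 86.6, 66.1, 77.1 and 91.1 in controls, a difference of 0.38 (SE 0.21) with overlapping groups. A pair of related probe sets was left out because each had several symbols in the authors' deposited table. The one listed with Adamts5 read 58.6 to 129.3 units in dKO and 4.3 to 46.7 in controls, and the one listed with Adam19 read 31.5 to 64.2 and 83.9 to 96.9.

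**Figure D3:**
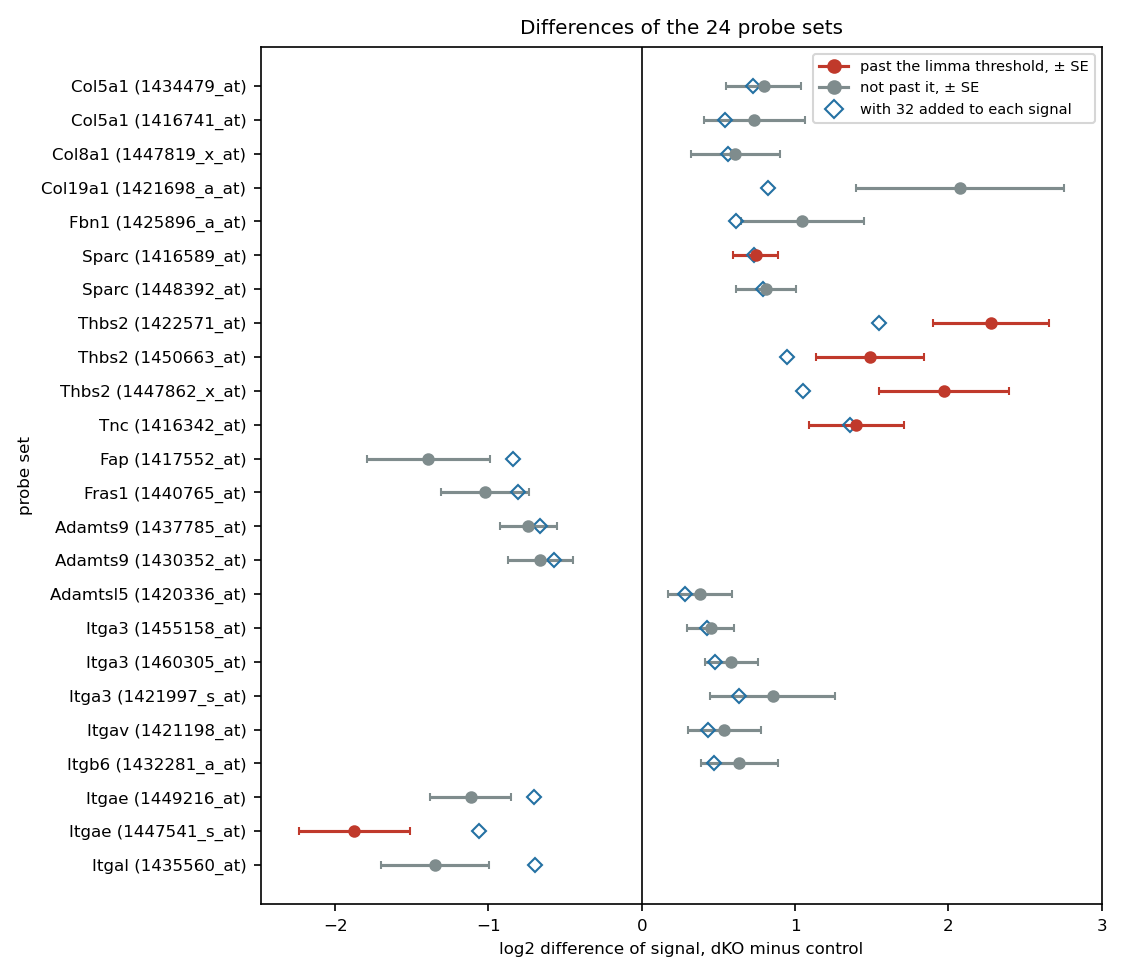
Log2 difference of signal, dKO minus control (x axis), for each of the 24 probe sets (y axis), with bars of 1 SE from limma, and open diamonds for the difference with 32 added to each signal. Red marks the 6 probe sets past the threshold. Col19a1 moves most towards 0 with the offset, from 2.08 to 0.82, and Sparc hardly moves.

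The integrins comprised 3 chains found in keratinocytes, which were higher by their means, and 2 of leukocytes, which were lower. Itga3 is the alpha chain of the alpha 3 beta 1 integrin, a receptor of basal keratinocytes for laminin. The 1 named basal keratinocyte marker of 7, the keratin Krt15, fell by 1.66 (SE 0.18) on the same arrays, and the 1 named suprabasal marker of 6, the keratin Krt77, rose by 2.21 (SE 0.36). Their part in the integrin signals was not tested. Both keratins had names only because the authors had listed them as different, so unchanged markers of either layer could not be seen. The brightest Itga3 probe set read 651.4, 598.9, 803.5 and 662.3 units in dKO and 487.2, 490.5, 643.4 and 388.9 in controls. Only control replicate 3 reached into the dKO range, and the difference was 0.45 (SE 0.15).

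The second Itga3 probe set did not overlap, with 149.1 to 217.4 units in dKO and 109.6 to 133.3 in controls, and differed by 0.59 (SE 0.17). The third did overlap, with 143.2 to 229 units in dKO and 37.7 to 196.5 in controls, and differed by 0.85 (SE 0.41). No named Itga3 probe set passed the threshold.

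Itgav and Itgb6 encode the chains of the alpha v beta 6 integrin of epithelial cells, which binds tenascin-C and fibronectin and activates latent TGF-beta. Itgav read 228.0, 164.4, 163.0 and 116.5 units in dKO and 110.1, 79.1, 135.4 and 136.0 in controls, a difference of 0.54 (SE 0.24). Itgb6 read 152.0, 111.7, 124.6 and 76.5 units in dKO and 75.5, 55.9, 74.8 and 87.7 in controls, a difference of 0.64 (SE 0.25). In both genes dKO replicate 4 lay inside the control range, the other 3 dKO arrays above it, and neither passed.

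Itgae is the alpha E chain by which T cells and dendritic cells in epithelia bind E-cadherin. Its brighter probe set read 39.6, 31.2, 34.3 and 46.6 units in dKO and 94.5, 69.5, 70.5 and 94.1 in controls, a difference of -1.12 (SE 0.27), or -0.70 with 32 added. The dimmer one read 12.6 to 34.9 and 73.3 to 104.6 units, a difference of -1.87 (SE 0.36), or -1.06 with 32 added, and passed. Neither probe set overlapped between groups.

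Itgal, the alpha L chain of the leukocyte integrin LFA-1, which binds Icam1, read 15.3, 24.1, 25.0 and 22.2 units in dKO and 60.9, 58.8, 65.0 and 36.9 in controls. The groups did not overlap and the difference was -1.35 (SE 0.35), or -0.70 with 32 added. The named leukocyte markers were lower by their means on the same arrays. They had names only because the authors had listed them as different there, so unchanged markers could not be seen. Of the 9 named myeloid and Langerhans cell markers, 5 fell and 4 did not pass, and 22.3% of all named genes fell. C1qa, C1qb and Emr1 overlapped between groups. The summed signal of the 3 named T cell markers of 7 was 95.8 to 109.2 units in dKO and 210 to 338.9 in controls, and that of the 9 named myeloid and Langerhans cell markers of 13 was 509.8 to 1889 and 2439 to 3854. Cd3d and Cd3g, chains of the T cell receptor complex, read 2.9 to 5.4 and 13.8 to 36.6 units in dKO and 40.7 to 87.6 and 90.1 to 141 in controls, and both fell. The third T cell marker, Cd5, differed by -0.45 (SE 0.25) with overlapping groups, 55.5 to 86.5 and 63.7 to 120.6 units, and did not pass. Whether the integrin signals followed the number of these cells was not tested.

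Other genes of matrix and adhesion came from 5 lists of matrix, protease, adhesion and TGF-beta genes, and again only those in the authors' deposited table had names. The list of proteases and their inhibitors had 6 named genes of 31, of which 4 rose and 2 fell. Over all named genes, 19.4% rose and 22.3% fell, as given above. Serpinb2 and Serpine2, inhibitors of plasminogen activators and related proteases, rose by 1.32 (SE 0.26) and 1.16 (SE 0.20). Serpinb2 overlapped between groups, with dKO replicate 4 at 3400 units and control replicate 4 at 3439, and Serpine2 did not. Htra1, a secreted serine protease, rose by 0.73 (SE 0.11), and Spink5, an inhibitor of skin kallikreins, by 0.97 (SE 0.16). Ctss, a cysteine protease of antigen-presenting cells, fell by 1.38 (SE 0.22) and Tmprss4, a membrane serine protease, by 0.77 (SE 0.13).

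Of 36 hemidesmosome and focal adhesion genes, 5 were named, 1 rose and 1 fell, a share near the 41.8% of all named genes. The kinase Ptk2b rose by 0.96 (SE 0.15). Fermt3, the kindlin of blood cells that activates leukocyte integrins, fell by 1.21 (SE 0.23). Its dimmer probe set differed by -1.08 (SE 0.37) with overlapping groups and did not pass. Tns4 (1.00, SE 0.29), Parva (0.75, SE 0.18) and Vcl (0.53, SE 0.24), proteins of focal adhesions, did not pass.

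Among 37 TGF-beta and BMP genes 4 were named, and the receptor and its ligand moved in opposite directions. Tgfbr2, a TGF-beta receptor, rose by 1.25 (SE 0.16), with 1335 to 2389 units in dKO and 689.4 to 855.1 in controls. Tgfb3, a ligand, fell by 1.04 (SE 0.17), with 170.1 to 268 units in dKO and 367.9 to 485.6 in controls. Neither overlapped. The co-receptor Tgfbr3 (0.79, SE 0.19) did not pass. The secreted protein Tgfbi was lower in each of its 3 named probe sets. The brightest (-0.76, SE 0.24) and the dimmest (-0.78, SE 0.21) did not pass, while the third (-1.05, SE 0.24) did, with 643.3 to 1735 units in dKO and 1714 to 2310 in controls.

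Of 73 proteoglycans and glycoproteins 7 were named. Ecm1, a secreted protein of the epidermis, fell by 1.00 (SE 0.19), and Efemp2, which is needed for elastic fibre assembly, rose by 0.98 (SE 0.22). Bgn (-0.85), Ctgf (-0.84), Hmcn1 (-0.76) and Spp1 (1.84) did not pass, nor did the brightest probe set of Tgfbi, also on the list before. Spp1 (SE 0.79) was dim, at 18.3 to 32.2 units in dKO and 1.2 to 21.4 in controls, and differed by 0.44 with 32 added. None of 26 genes of collagen synthesis and crosslinking was named. These counts too rest on the authors' choice of genes on the same arrays.

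**Figure D4:**
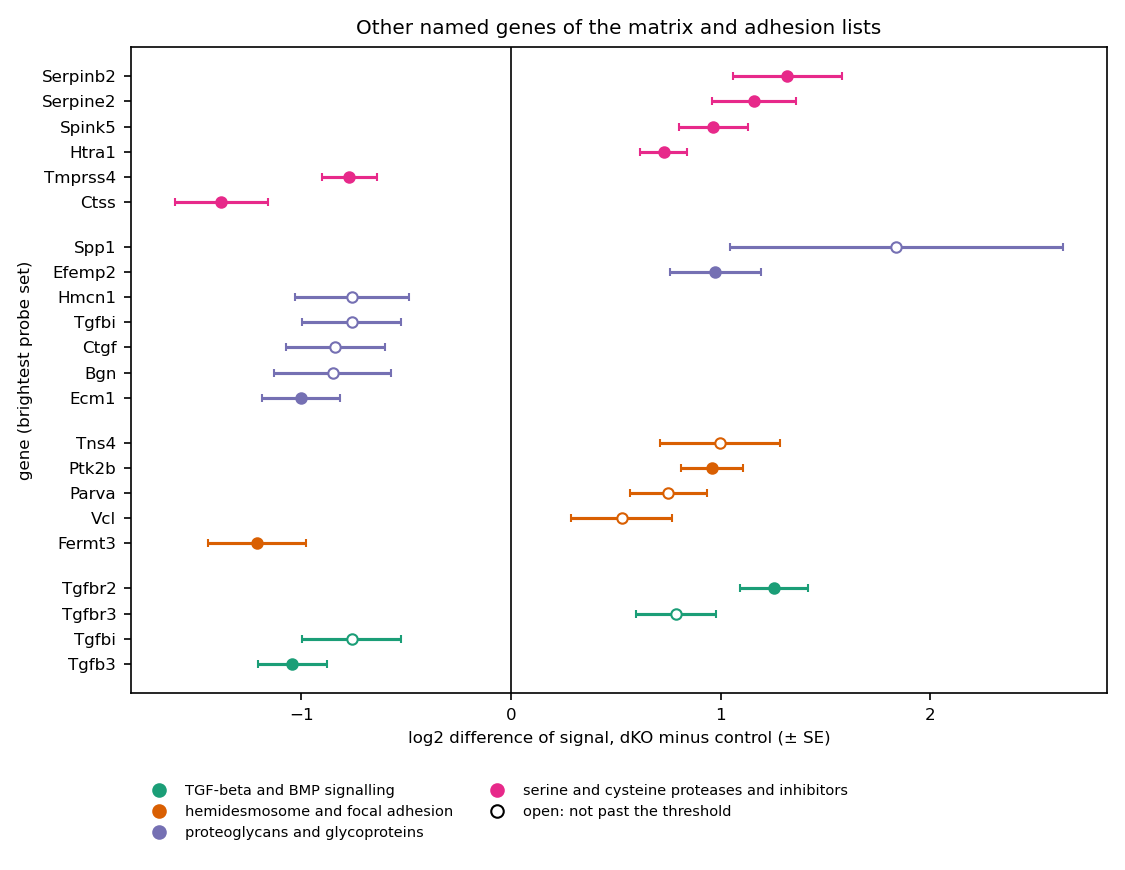
Log2 difference of signal, dKO minus control (x axis), with bars of 1 SE from limma, for the named genes of 4 matrix and adhesion lists (y axis, brightest probe set). Filled points passed the threshold, among them Tgfbr2 at 1.25, Tgfb3 at -1.04 and Fermt3 at -1.21.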

How the data were processed

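Trizol RNA was labelled and put on 1 array per sample, per the labels' protocols. The deposited value table gives 1 linear intensity per probe set and array. Its scaling is not stated; the submitters' processing notes list MAS5 and Partek without a role or version, and on each array the mean signal after trimming 2% at either end was 250.0. The authors' deposited comparison holds, per the file headers, a ratio, a signed fold and an F statistic (both kept as a score) and an unadjusted p-value. It served for gene names, selection limits and a check of directions.

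Left out of 45101 probe sets were 64 controls and 5 with a signal of 0. The log2 values were fitted with limma 3.58.1 in R 4.3.3, with an intensity trend in eBayes and genotype as the only factor. Benjamini-Hochberg adjustment ran over 45032 probe sets, with a threshold of 0.05, to which "rose" and "fell" refer. The number of arrays limits the precision. A gene is represented by the probe set with the highest mean log2 signal among those that the authors' deposited table names for it. For members, all probe sets named there are described. Other probe sets of the same genes could not be named. The procedure was tested on simulated data. Alternatives were an offset of 32, median centring, quantile normalization, other variance models, a level filter, replicate number as a block, and leaving out arrays. A further one took the median difference over a gene's probe sets and called the gene by their smallest adjusted p.

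The members and lists were chosen with earlier results of these data known. The rule for per-array values asked for up to 4 genes per role class at or above the median level without overlap, plus Sparc and Fap. With 16 members, values of all are given instead, a choice made after they were seen. The wound keratins lie outside the rule. A few genes of the lists are not reported here, and the lists' counts leave them out.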

Additional observations from a re-analysis of the deposited data

Results flagged for a closer look

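In 2 of the 48 groups of 4 arrays (24 probe sets in 2 genotypes), a single array lay far from the others on the log2 scale by Dixon's criterion, which marks about 1 group in 20 by chance. For Col19a1 it was control replicate 1, at 2.4 units against 17.4 to 25.0 in the other controls. For the dimmer probe set of Col5a1 it was control replicate 3, at 41.2 units against 92.6 to 105.0.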

How the results depend on the processing

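No difference of the 16 genes reversed under any alternative, but the authors had chosen these genes for their differences on the same arrays. Of 269 gene values under alternatives, 244 stayed on the same side of the threshold, 16 lost a call and 9 gained one. The call was lost in 10 of 17 alternatives for Tnc, 5 of 17 for Sparc and 1 of 17 for Thbs2. The count of 3 genes past the threshold became 0 without the intensity trend (0 higher; of all probe sets 60 passed; 12 of the 16 genes had an unadjusted p under 0.05, as had 12.8% of all probe sets) and 5 when only probe sets at or above the median level were fitted, 2 of them lower. Robust variance left 3 genes, 2 higher without Tnc (limma Benjamini-Hochberg adjusted p = 0.103) and 1 lower. Another alternative took the median difference over a gene's probe sets but called the gene by the smallest adjusted p of any of them. It gave 4 genes, 3 higher and 1 lower, the latter Itgae by its dimmer probe set. Leaving out single arrays gave 1 to 5 genes in all, 1 to 3 higher and 0 to 2 lower; it was 1 without dKO replicate 3 or control replicate 1 and 5 without dKO replicate 4. The number of genes without overlap was 7 to 10 in these fits, while the share of all probe sets without overlap rose from 9.37% to between 12% and 15.7%. Without both arrays numbered 4, a choice made after seeing the data, it was 11 genes and 23.2% of all probe sets, and 2 genes passed. With the replicate number as a block 3 genes passed, as without it. After the group mean of each probe set was subtracted, same-numbered dKO and control arrays correlated at -0.088 to 0.043 over probe sets at or above the median level. The numbers were therefore not taken to pair the arrays. Quantile normalization and the offset of 32 each left 2 genes, without Tnc. Centring each array on its median moved the median of all probe sets by 0.125 and the split of all calls from 447 higher and 565 lower to 607 and 322, with 3 member genes past the threshold, all higher. Signals near background limit what can be read from dim genes such as Col19a1, Fbn1 and Itgal.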
